A study of Mus musculus with 12 samples.

Results

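Most mouse genes whose symbols begin with Clec and a digit encode proteins with a C-type lectin-like domain. All 30 genes with such symbols among the 31053 genes of the feature table were taken by symbol alone, with no use of their values. Their unique molecular identifiers (UMIs, 1 per captured transcript) were followed in single-cell 3' libraries of 3 cell sources: a tracheal allograft, native tracheas and the spleen. There are 4 labelled samples per source, 12 in all, but each source is 1 pooled matrix with no map from cells to samples, so no difference between sources has a replicate check and none was tested. The trachea samples are labelled mesenchymal progenitors and the spleen samples splenocytes. Strain, sex, age, donor and recipient, time after transplantation and treatment are not in the labels, so no agent or allele can be named for any of the groups or as shared by them.

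C-type lectin receptors bind sugars, lipids or proteins of microbes and of damaged cells, mostly at the surface of myeloid cells. Activating members pass the signal through the adaptors Fcer1g or Tyrobp to the kinase Syk and on to Card9, while inhibitory members carry motifs that recruit the phosphatases Ptpn6 and Ptpn11. Other members work outside this scheme: the Clec2 proteins are ligands of the Klrb1 receptors of natural killer (NK) cells, and Clec3b and Clec11a are secreted by connective tissue cells.

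Most of these genes lie together, 22 of the 30 on chromosome 6 (GENCODE M21 annotation of build GRCm38, the build the authors name mm10). All 30 are annotated as protein-coding. A block of 368 kb on chromosome 6, from 122921848 to 123289870, holds 9 members in the order Clec4a1, Clec4a3, Clec4a4, Clec4b1, Clec4a2, Clec4b2, Clec4n, Clec4d and Clec4e. Clec4n (ENSMUSG00000023349) spans 123229843 to 123247021 on the plus strand, Clec4d (ENSMUSG00000030144) 123262111 to 123275265 on the plus strand, and Clec4e (ENSMUSG00000030142) 123281789 to 123289870 on the minus strand. A block of 524 kb from 128662385 to 129186534 holds the 5 Clec2 genes Clec2h, Clec2i, Clec2g, Clec2e and Clec2d. The next 109 kb, from 129342691 to 129452000, hold Clec12a, Clec12b, Clec1b, Clec9a and Clec1a. Outside chromosome 6, Clec3b (ENSMUSG00000025784) lies on chromosome 9 from 123150946 to 123157432 and Clec10a (ENSMUSG00000000318) on chromosome 11 from 70156197 to 70170834, both on the plus strand. Clec1b and Clec9a overlap on the same strand, and 7.66% of the 90-base words in the tail of Clec10a also stand in Mgl2. Clec4a2 shares 3.42% of such words with Clec4a4, and Clec2h 1.98% with Clec2i. Counts of these pairs could thus be split by the authors' counting.

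The promoters of 4 members that differ in the classes where they were found are printed here, Clec4d and Clec4e for neutrophils, Clec4a1 for macrophages and monocytes, and Clec2d, which was found in lymphocytes and myeloid cells alike. Each runs 5′ to 3′ on the gene's own strand, from 250 bases before to 50 after the RefSeq start (GRCm38.p6), and capitals mark every GAGGAA or its reverse complement TTCCTC, the core that the myeloid factor PU.1 binds. They are Clec4d at chr6:123261857-123262156 (plus strand), Clec4e at chr6:123289822-123290121 (minus strand), Clec4a1 at chr6:122921598-122921897 (plus strand) and Clec2d at chr6:129180365-129180664 (plus strand).
Clec4d: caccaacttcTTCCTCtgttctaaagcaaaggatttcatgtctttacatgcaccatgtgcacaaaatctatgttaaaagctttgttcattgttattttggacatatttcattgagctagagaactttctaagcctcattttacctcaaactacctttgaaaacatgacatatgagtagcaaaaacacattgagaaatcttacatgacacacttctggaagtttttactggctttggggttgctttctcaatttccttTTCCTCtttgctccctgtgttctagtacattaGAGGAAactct
Clec4e: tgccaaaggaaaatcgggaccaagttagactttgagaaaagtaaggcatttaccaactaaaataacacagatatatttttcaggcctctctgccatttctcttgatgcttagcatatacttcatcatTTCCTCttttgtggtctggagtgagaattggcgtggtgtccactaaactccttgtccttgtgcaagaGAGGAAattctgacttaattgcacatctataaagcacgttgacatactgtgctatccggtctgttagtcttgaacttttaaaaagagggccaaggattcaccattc
Clec4a1: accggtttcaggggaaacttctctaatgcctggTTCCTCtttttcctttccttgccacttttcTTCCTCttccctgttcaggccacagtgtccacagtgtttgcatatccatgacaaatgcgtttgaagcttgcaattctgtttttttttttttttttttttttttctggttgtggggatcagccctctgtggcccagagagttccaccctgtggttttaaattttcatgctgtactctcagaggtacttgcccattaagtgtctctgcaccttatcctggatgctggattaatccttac
Clec2d: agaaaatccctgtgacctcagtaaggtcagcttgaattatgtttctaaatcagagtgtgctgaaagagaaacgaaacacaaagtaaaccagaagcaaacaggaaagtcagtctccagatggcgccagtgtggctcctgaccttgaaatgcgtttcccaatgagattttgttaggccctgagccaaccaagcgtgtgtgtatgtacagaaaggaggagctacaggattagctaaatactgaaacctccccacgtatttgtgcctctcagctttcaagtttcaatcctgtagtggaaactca
The Clec4d window holds 3 matches, those of Clec4e and Clec4a1 hold 2 each, and that of Clec2d holds 0. RefSeq promoters were found for 24 of the 30 members, 26 promoters in all. On either strand, GAGGAA stood in 14 of these 26 (53.8%) against 28.3% of all 32851 promoters of the same length. The AP-1 letters TGANTCA stood in 6 (23.1% against 7.81%), the C/EBP letters TTGCNNAA in 6 (23.1% against 10.8%), TATAAA in 7 (26.9% against 13.6%) and the interferon gamma activated site TTCNNNGAA in 1 (3.85% against 8.30%). GAGGAA did not follow the cell class: it also stood in promoters of Clec11a and Clec14a, members of connective tissue and endothelium, and of Clec16a, Clec2h and Clec2l, and it was not among the letters of the Clec4a2 and Clec9a windows. A match is a description of the letters, not a bound site, and a window without one says nothing about the factor.

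The libraries held 26503045 UMIs over 4611 barcodes (allograft), 31415458 over 4626 (native trachea) and 28318436 over 4856 (spleen), and 3864, 4115 and 4570 cells were used, with medians of 4965, 6526 and 4428.5 UMIs. Between 4 and 7 barcodes were shared by any pair of libraries. Cells were gated on lists of 8 marker genes that hold no Clec gene. Macrophages made up 2079 allograft cells (53.8%), 1725 native cells (41.9%) and 65 spleen cells (1.42%), and neutrophils 565, 601 and 240 cells. Lymphocytes numbered 573, 272 and 3486, monocytes 179, 74 and 497, and dendritic cells 80, 232 and 64. Mesenchyme, fibroblasts and chondrocytes together, numbered 71 in the allograft (1.84%), 956 in native trachea (23.2%) and 0 in the spleen, so the trachea cells were mostly leukocytes by their markers, and not the labelled type. Levels are given as CPM, the UMIs of a gene per 1e6 UMIs of the same cells. They are compared between libraries or classes for the same gene, with 95% intervals that cover counting error only.

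Across whole libraries, the receptors of phagocytes stood higher in the allograft than in native trachea, and Clec3b, Clec11a, Clec14a and Clec4g stood lower. Clec4n (Dectin-2), an Fcer1g-coupled receptor for fungal mannans, was at 213 CPM in the allograft, 42.3 in native trachea and 7.78 in the spleen. Clec12a, an inhibitory receptor that binds uric acid crystals, was at 261, 88.9 and 44.7 CPM in the same order. The inhibitory receptor Clec4a2 (DCIR) was at 181, 71.5 and 17.1 CPM. For each of these 3 genes the allograft held the highest level and the spleen the lowest, with allograft to native ratios of 5.02 (4.72 to 5.34) for Clec4n, 2.93 (2.81 to 3.07) for Clec12a and 2.53 (2.40 to 2.66) for Clec4a2. Its relatives Clec4a1 and Clec4a3 were at 187 and 142 CPM in the allograft, 73.5 and 62.9 in native trachea and 59.2 and 67.9 in the spleen. Clec5a, a Tyrobp-coupled myeloid receptor, was at 50.5, 24.4 and 6.67 CPM, 2.07-fold higher in the allograft than in native trachea (1.89 to 2.27). The paired receptors Clec4d (MCL) and Clec4e (Mincle), which bind mycobacterial glycolipids, differed by less than 2-fold between the trachea libraries: Clec4d was at 307, 179 and 16.3 CPM and Clec4e at 275, 164 and 24.9 CPM. Clec10a, a receptor for galactose-type sugars on macrophages and dendritic cells, and Clec4b1, an activating receptor, were also close between the trachea libraries, at 136 and 107 CPM and at 67.3 and 54.6 CPM, but at 2.55 and 4.05 CPM in the spleen.

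**Figure D1:**
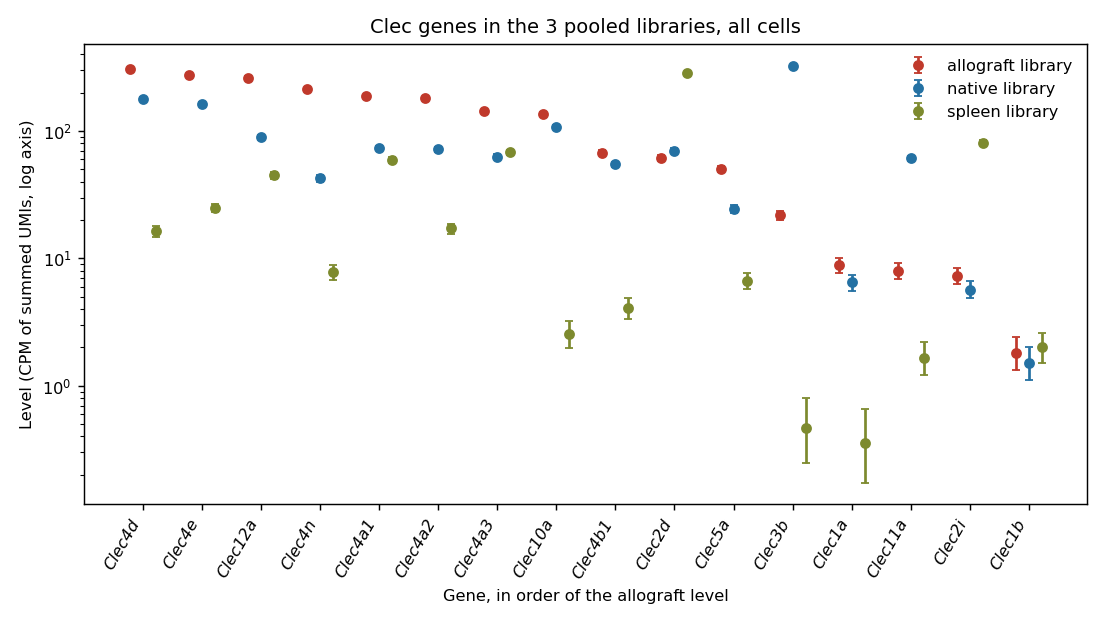
Levels of the 16 Clec genes with 10 CPM or more in a library or 50 CPM or more in a class of 50 or more cells, in CPM on a log axis, with 1 point per library (allograft, native trachea, spleen) and 95% Poisson intervals as bars. Clec4n stands at 213, 42.3 and 7.78 CPM, while Clec3b is highest in native trachea (323 CPM) and Clec2d and Clec2i are highest in the spleen (283 and 80.9 CPM).

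The secreted members Clec3b and Clec11a ran the other way. Clec3b (tetranectin), a plasminogen-binding plasma and matrix protein, was at 21.7 CPM in the allograft, 323 in native trachea and 0.466 in the spleen. Clec11a, a secreted growth factor of bone marrow and bone, was at 7.96, 60.9 and 1.65 CPM. Against native trachea, the allograft level was 14.9-fold lower for Clec3b (13.7 to 16.2) and 7.64-fold lower for Clec11a (6.62 to 8.89). Clec14a, an endothelial receptor, and Clec4g, a receptor known from liver and lymph node endothelium, were 12.8-fold (7.44 to 26.2) and 9.49-fold (3.47 to 55.3) lower on 12 against 190 UMIs and 3 against 39 UMIs. Of the 39 native Clec4g UMIs, 14 lay in dendritic cells, while native endothelial and mesenchyme cells held 0. The share of mesenchyme-gated cells was also lower in the allograft library (1.84% against 23.2%), and levels within the gate are given further on. Of the 26 members with 10 or more UMIs in the trachea libraries, 10 were at least 2-fold higher in the allograft (7.06% of 16465 genes were) and 4 at least 2-fold lower (19.5% of all genes). Beside phagocyte receptors, those higher included Clec2g (169 against 63 UMIs), Clec12b (78 against 13), Clec2l (12 against 6) and Clec3a, known from cartilage (17 against 1). The median log2 ratio of the members was 0.72, beside 0.01 over all genes. With every cell weighted equally, by a mean of per-cell CPM or by thinning, 6 members were at least 2-fold higher, and the log2 ratio of Clec4n was 1.57 or 1.59 in place of 2.33.

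Most members were concentrated in 1 or a few classes, as the map of levels by class shows. In native trachea, fibroblasts held 95.9% of the Clec3b UMIs and 96.9% of the Clec11a UMIs. Macrophages held 87.3% of the allograft and 81.5% of the native Clec10a UMIs. Neutrophils held 35.0% of the allograft, 55.4% of the native and 73.6% of the spleen Clec4d UMIs. After each cell was thinned to 1000 UMIs, at least 1 Clec gene was detected in 98.9% of allograft, 96.3% of native and 79.2% of spleen neutrophils. The same share was 84.5%, 70.7% and 80.8% in macrophages, 81.0%, 81.1% and 87.4% in monocytes, and 12.5%, 16.9% and 38.2% in lymphocytes. The lymphocyte share was highest in the spleen and the neutrophil share highest in the trachea libraries.

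**Figure D2:**
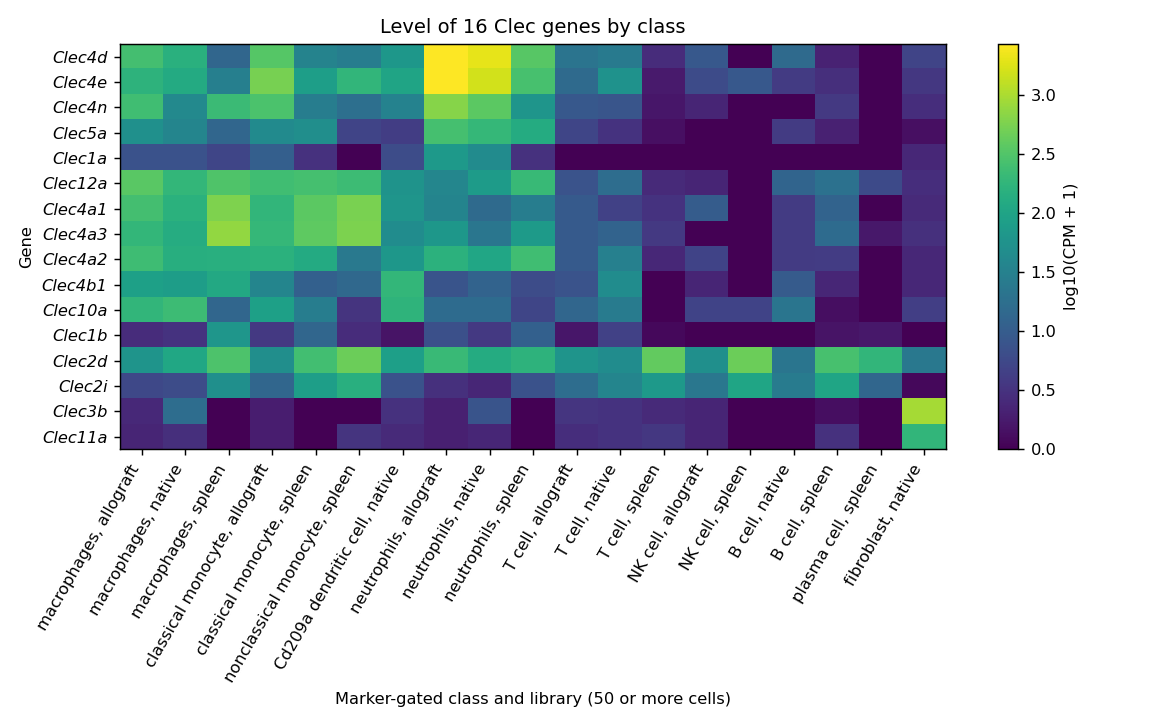
Levels of the same 16 genes in each gated class with 50 or more cells in a library, as log10 of CPM plus 1, with genes in rows and class and library in columns. Clec4d and Clec4e are highest in neutrophils (2671 and 2682 CPM in the allograft), Clec3b and Clec11a in native fibroblasts (936 and 178 CPM), and Clec2d in the spleen columns of nonclassical monocytes, NK cells and T cells (461, 451 and 402 CPM). Dendritic cells of the allograft and of the spleen are not drawn because no single marker list held 50 of them. The 48 allograft fibroblasts are not drawn either.

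Neutrophils carried the highest Clec4d and Clec4e levels of any class with 50 or more cells. Clec4d was at 2671 CPM in allograft, 2026 in native and 348 in spleen neutrophils. Clec4e, its neighbour on chromosome 6 and its partner in the receptor complex, was at 2682, 1577 and 271 CPM. Both genes were thus several-fold lower in spleen than in trachea neutrophils, and between the trachea libraries the allograft level was 1.32-fold higher for Clec4d (1.25 to 1.39) and 1.70-fold higher for Clec4e (1.61 to 1.80). At 1000 UMIs per cell, Clec4d was detected in 87.1% of allograft, 83.5% of native and 37.3% of spleen neutrophils (94.3%, 93.7% and 60.8% at full depth). In T cells, which should lack it, the thinned shares were 1.10%, 0.962% and 0.0905%, where median depths were 3892, 4172 and 4297 UMIs against 1702, 1975 and 2385.5 in neutrophils. The 2 receptors were often found in the same cell: Clec4e was detected in 80.6% of the allograft neutrophils with a Clec4d UMI and in 68.6% of those without, and in native trachea in 71.0% and 61.2%.

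Clec4n and Clec5a, also activating receptors, had a similar order in neutrophils. Clec4b1, likewise activating, did not, at 6.82 CPM in the allograft, 11.5 in native trachea and 5.21 in the spleen. Clec4n was at 644 CPM in the allograft, 369 in native trachea and 59.4 in the spleen. Clec5a was at 262, 193 and 127 CPM. Clec1a, a receptor known from endothelium and myeloid cells, was at 70.2 CPM in the allograft and 44.5 CPM in native trachea (1.58-fold, 1.11 to 2.24). The inhibitory members Clec12a and Clec4a2 did not share the order of Clec4n: Clec12a was at 37.0, 74.1 and 206 CPM and Clec4a2 at 159, 106 and 238 CPM, both highest in the spleen. In native neutrophils, 1 cell held 31.8% of the 110 Clec12a UMIs. Of 15 members compared between the trachea libraries in neutrophils, 3 were at least 2-fold higher in the allograft (6.37% of 7928 genes) and 1 at least 2-fold lower (7.54%). The higher ones were Clec4a3 (63.3 against 20.9 CPM, 3.01-fold, 1.95 to 4.82), Clec4a1 (34.1 against 14.1 CPM, 2.39-fold, 1.36 to 4.36) and Clec1b, which rested on 6 and 4 UMIs; the lower one, Clec3b, rested on 1 and 10 UMIs. The macrophage marker list, with all 8 genes detected, summed to 593 CPM in allograft and 498 CPM in native neutrophils; its part in these values was not tested.

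In macrophages, Clec4n stood several-fold higher in the allograft than in native trachea. It was at 234 CPM in allograft, 40.2 in native and 215 in spleen macrophages, so the native library stood below both others, and the allograft to native ratio was 5.81 (5.28 to 6.41). Thinned to 1000 UMIs, 17.2% of allograft macrophages (15.6 to 18.9%) and 2.92% of native ones (2.17 to 3.83%) had a Clec4n UMI, against 0.274% and 0.481% of T cells. Unthinned, the macrophage shares were 48.9% and 13.2%, at median depths of 6836 and 6328 UMIs. A Clec4n difference of the same direction appeared in monocytes (261 against 111 CPM, 2.34-fold, 1.80 to 3.11), dendritic cells (142 against 31.5 CPM, 4.49-fold, 3.39 to 6.01) and neutrophils. The macrophages held 71.5% of the allograft and 36.8% of the native Clec4n UMIs.

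Clec12a, Clec4a2, Clec4a1 and Clec4d were higher in allograft macrophages by less than 2-fold. Clec12a was at 352 CPM in allograft and 184 CPM in native macrophages (1.91-fold, 1.82 to 2.01). Clec4a2 was at 234 and 140 CPM (1.67-fold), Clec4a1 at 255 and 155 CPM (1.64-fold) and Clec4d at 249 and 150 CPM (1.66-fold). All 4 intervals excluded 1, and all 4 ratios were below 2. Clec4a3, Clec5a, Clec4e and Clec4b1 stood between 1.10-fold and 1.45-fold higher in the allograft. Clec10a ran the other way, at 182 CPM in allograft and 225 CPM in native macrophages (1.24-fold lower, 1.17 to 1.30), as did Clec2d, at 57.7 and 108 CPM (1.88-fold lower, 1.72 to 2.04). Of 20 members compared, 3 were at least 2-fold higher in the allograft (7.06% of 13761 genes): Clec4n, Clec9a (2.48 against 0.596 CPM) and Clec2g (8.21 against 3.32 CPM). A further 2 were at least 2-fold lower (10.8% of genes), namely Clec3b (1.51 against 15.7 CPM) and Clec4g (2 against 14 UMIs). The members' median log2 ratio was 0.28 and that of all genes 0.06. The fibroblast list, with 8 of 8 genes detected, summed to 574 CPM in allograft and 403 CPM in native macrophages, while the collagen gene Col6a1, outside that list, was at 5.74 and 27.3 CPM. The part of fibroblast UMIs in the Clec3b values was not tested.

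**Figure D3:**
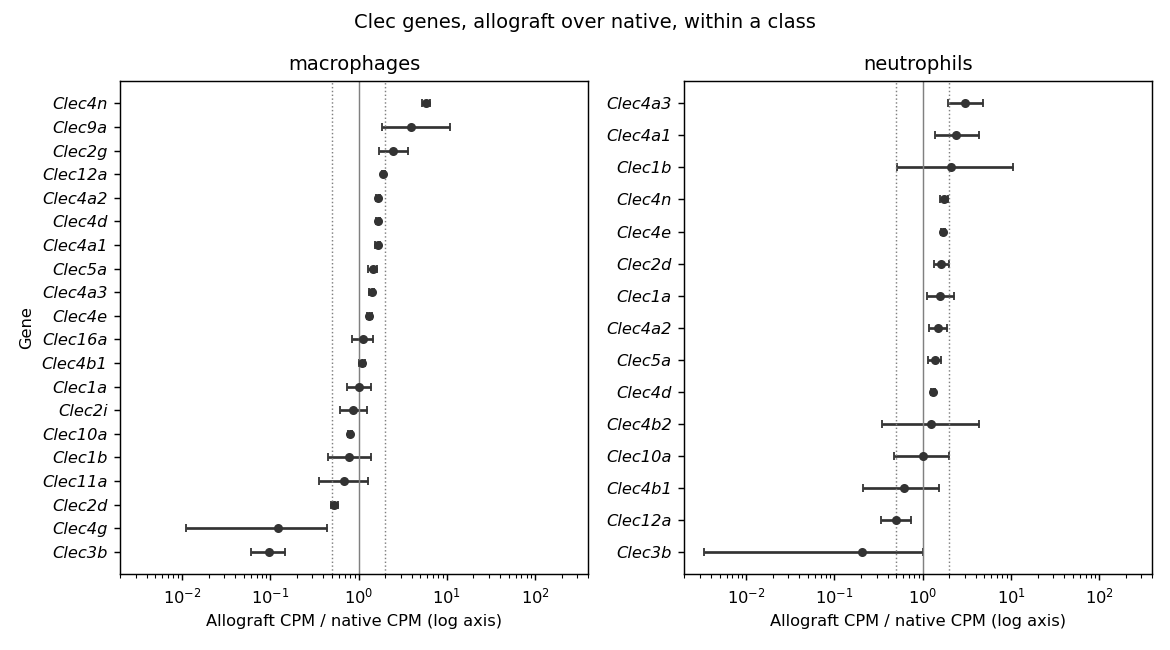
Allograft to native ratios of Clec gene levels on a log axis, with 95% intervals for counting error, for the 20 members compared in macrophages and the 15 compared in neutrophils. Dotted lines mark 0.5 and 2. Clec4n stands at 5.81 in macrophages and 1.74 in neutrophils, while Clec10a and Clec2d in macrophages and Clec12a in neutrophils lie between 0.5 and 1. Of the Clec12a UMIs in native neutrophils, 1 cell held 31.8%.

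Macrophages were also split by whether a UMI of Lyve1 or Cd163 (genes of resident tissue macrophages) or of Gpnmb (a gene of lipid-laden and phagocytic macrophages) was detected. The split gave 76 allograft and 1063 native cells with Lyve1 or Cd163, 466 allograft cells with Gpnmb, and 1526 and 606 cells with none of these genes. Only 34 native cells had Gpnmb alone, which was under the 50 needed. Clec10a was at 668 CPM in the allograft cells with Lyve1 or Cd163 (596 to 747), 215 in those with none and 58.8 in those with Gpnmb (52.2 to 66.0). In native trachea it was at 314 CPM (301 to 327) with Lyve1 or Cd163 and 108 with none. Within each of the classes that both libraries held, the allograft therefore had the higher Clec10a level, although its level over the whole gate was lower. Clec4b1 was at 163 CPM in allograft and 51.5 CPM in native cells with Lyve1 or Cd163, and at 105 and 123 CPM in those with none, so its direction differed between the classes. Clec4n was higher in the allograft in both, at 73.0 against 28.2 CPM and at 226 against 33.1 CPM, and stood at 269 CPM with Gpnmb. Clec4d was at 346 CPM with Gpnmb (330.2 to 363), against 125 and 211 CPM in the other allograft classes. Clec4a1 had the opposite order in the allograft, at 350.2 CPM with Lyve1 or Cd163, 285 with none and 180.2 with Gpnmb. The Gpnmb class was the deepest, with a median of 9135 UMIs against 5049.5 and 6410, and a deeper cell is more likely to show a UMI of a splitting gene.

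**Figure D4:**
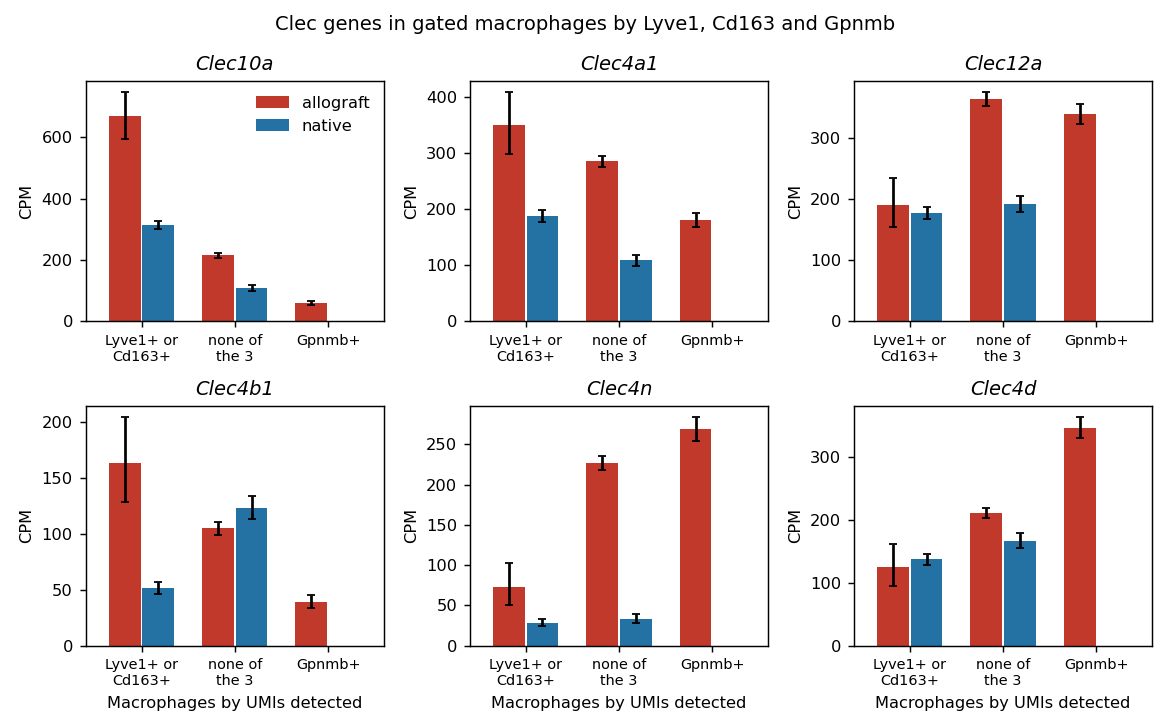
CPM of 6 Clec genes in macrophages split by detected UMIs of Lyve1 or Cd163, of Gpnmb, or of none of them, with bars for allograft and native trachea and 95% Poisson intervals; native Gpnmb cells (34) were too few to draw. Clec10a ranges from 668 CPM (Lyve1 or Cd163) to 58.8 CPM (Gpnmb) in the allograft, while Clec4d and Clec4n are lowest with Lyve1 or Cd163 (125 and 73.0 CPM).

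The DCIR-type genes Clec4a1 and Clec4a3 were highest in spleen macrophages and spleen monocytes. In macrophages, Clec4a3 was at 185 CPM in the allograft, 131 in native trachea and 755 in the spleen (650.0 to 873). Clec4a1 was at 255, 155 and 578 CPM (486 to 682 in the spleen). The spleen macrophages were 65 cells with a median of 1851 UMIs, and the splenic macrophage gene Cd5l was at 706 CPM in them against 3.98 and 5.37 CPM in the trachea libraries. In the 430 nonclassical monocytes of the spleen, Clec4a3 was at 570.4 CPM and Clec4a1 at 551 CPM, and in the 67 classical ones at 381 and 370.2 CPM. Trachea monocytes stood lower, with Clec4a1 at 200.2 and 213 CPM and Clec4a3 at 184 and 193 CPM in allograft and native trachea. In those monocytes Clec4e was lower in the allograft (530.1 against 873 CPM, 1.65-fold, 1.47 to 1.85), whereas Clec10a (77.5 against 21.8 CPM, 3.43-fold, 1.98 to 6.89) and Clec5a (44.5 against 16.8 CPM, 2.54-fold) were higher. Of 15 members compared in monocytes, these 2 and Clec4n were at least 2-fold higher (10.8% of 8360 genes) and 0 at least 2-fold lower (4.38%). With cells thinned to 1000 UMIs, where fewer genes could be compared, 0 were higher. Classical cells made up 145 of 179 allograft and 41 of 74 native monocytes.

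Among dendritic cells, Clec9a and Clec4b1 had their highest levels in different gates, though neither was confined to its gate. Clec9a, a receptor by which cross-presenting dendritic cells recognise dead cells, was at 123 CPM in the Xcr1 dendritic cells of the allograft (95.3 to 156), 76.1 in those of native trachea (53.0 to 106) and 293 in those of the spleen (217 to 387). These gates held only 33, 41 and 17 cells, and 24, 19 and 12 of them had a Clec9a UMI. They held 58.6%, 47.9% and 57.6% of their library's Clec9a UMIs. The 17 plasmacytoid dendritic cells of the spleen held 17.6% of that library's Clec9a UMIs, at 124 CPM (69.3 to 204) with 8 cells positive. Clec4b1 was at 184 CPM (165 to 205) in the 180 native cells gated on Cd209a and its companions, of which 132 (73.3%) had a UMI, and at 139.8 CPM (99.4 to 191) in the 25 allograft ones. It was also at 58.7 CPM in native Xcr1 cells, and the Cd209a cells held only 20.9% of the native and 2.27% of the allograft Clec4b1 UMIs. Clec10a in the Cd209a cells was at 387 CPM in the allograft (318 to 467) and 171 in native trachea (153 to 191), with the near-identical Mgl2 among the gate's markers. Over the whole dendritic gate Clec4b1 was at 49.7 CPM in the allograft and 155 in native trachea (ratio 0.323, 0.235 to 0.429). The gate held 25 Cd209a cells of 80 in the allograft and 180 of 232 in native trachea. Of 18 members compared, 5 were at least 2-fold higher in the allograft (19.6% of 9297 genes) and 2 at least 2-fold lower (5.51%). The higher ones were Clec5a, Clec4n, Clec2i, Clec1b and Clec9a, and the lower ones Clec4b1 and Clec4g. Clec1b rested on 5 and 5 UMIs (0.539 to 10.2 for the ratio) and Clec4g on 0 and 14, and with cells thinned to 1000 UMIs 2 members were higher and 1 lower. Clec4a4 (DCIR2), known from spleen dendritic cells, had 7, 5 and 16 UMIs in the allograft, native and spleen libraries.

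Over whole libraries, the NK cell receptor ligands Clec2d and Clec2i were highest in the spleen. Clec2d (Clr-b), the ligand of the inhibitory NK cell receptor Klrb1b, was at 61.4 CPM in the allograft, 70.1 in native trachea and 283 in the spleen. Clec2i (Clr-g), a ligand of Klrb1f, was at 7.26, 5.67 and 80.9 CPM. Against native trachea the spleen was 4.03-fold higher for Clec2d (3.84 to 4.23) and 14.2-fold higher for Clec2i (12.2 to 16.8). Of 24 members compared between these libraries, 4 were at least 2-fold higher in the spleen (27% of 16832 genes), namely Clec2i, Clec2d, Clec2g and Clec4a4, and 14 at least 2-fold lower (30.7%). Within classes, the spleen level of Clec2d was the highest of the 3 libraries in T cells but not in neutrophils. T cells had 58.9 CPM of Clec2d in the allograft, 45.6 in native trachea and 402 in the spleen, with a spleen to native ratio of 8.76 (6.88 to 11.5). NK cells had 50.1 CPM in the allograft and 451 in the spleen (8.93-fold, 6.22 to 13.3). B cells had 20.2 CPM in native trachea and 268 in the spleen. Spleen monocytes (414 CPM) and dendritic cells (412 CPM) also stood above the spleen lymphocyte gate as a whole (297 CPM), so Clec2d was not particular to lymphocytes there. Neutrophils had 207 CPM in the allograft, 127 in native trachea and 164 in the spleen, with a spleen to native ratio of 1.29 (1.04 to 1.61) and the allograft highest. Thinned, 6.58% of allograft, 4.33% of native and 33.7% of spleen T cells had a Clec2d UMI (22.1%, 19.2% and 77.7% at full depth). Of native fibroblasts, 1.79% did after thinning and 15.7% at their full median depth of 10821.5 UMIs.

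**Figure D5:**
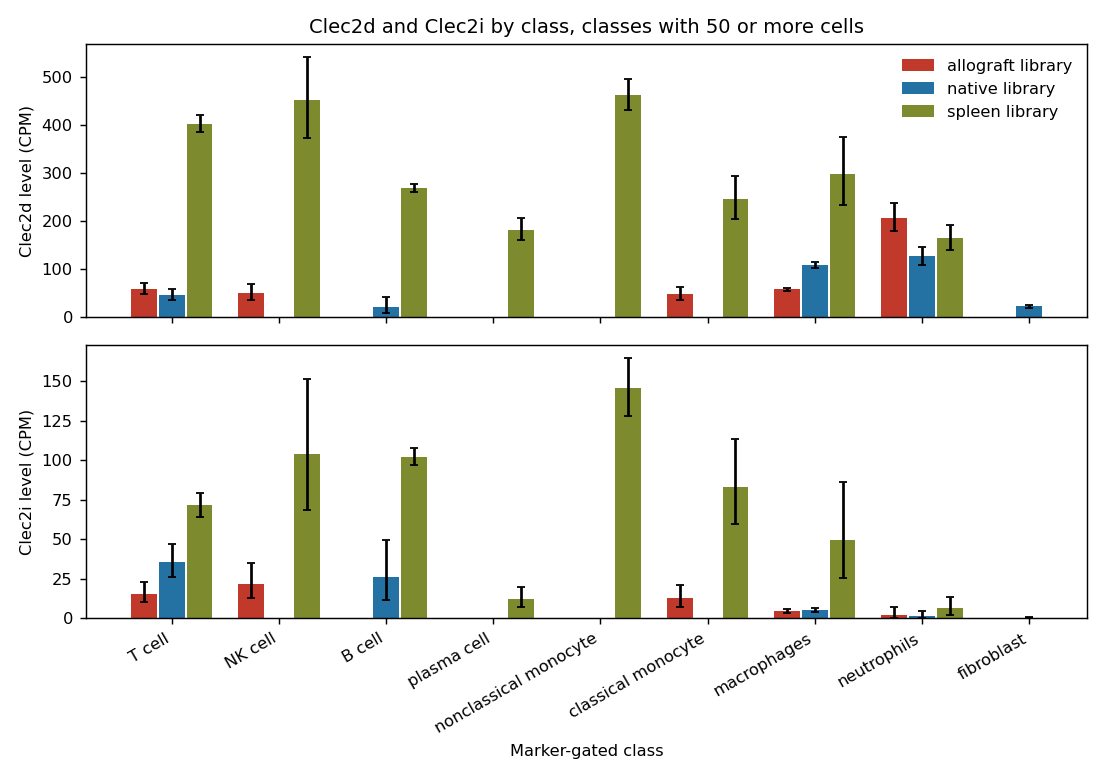
CPM of Clec2d and Clec2i by gated class and library, with 95% Poisson intervals, for classes with 50 or more cells in the library. Clec2d reaches 402 CPM in spleen T cells against 58.9 and 45.6 CPM in the trachea libraries, and Clec2i reaches 71.4 CPM against 15.6 and 35.6 CPM.

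Clec2i was also highest in the spleen in T cells, and in NK cells and classical monocytes it was higher in the spleen than in the allograft. It was at 71.4 CPM in spleen T cells, 15.6 in allograft and 35.6 in native T cells, and in NK cells at 104 CPM in the spleen and 21.8 CPM in the allograft (4.72-fold, 2.51 to 9.33). Classical monocytes had 83.2 CPM in the spleen and 12.6 CPM in the allograft. Mature dendritic cells of the spleen, only 17 cells, had 922 CPM of Clec2d and 354 CPM of Clec2i. Clec2g, a related gene, had its highest class level in spleen plasma cells, 47.5 CPM (36.9 to 60.1) from 69 UMIs in 21 of 71 cells.

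Between the trachea libraries, lymphocytes differed in the UMIs of myeloid members. In T cells Clec4b1 was at 6.61 CPM in the allograft, 44.9 in native trachea and 0 in the spleen (limit 0.588 CPM), and Clec4e at 14.4, 54.9 and 0.785 CPM. Clec4a2 was at 8.41, 29.9 and 1.37 CPM and Clec10a at 12.6, 25.7 and 0 CPM. These receptors are not known as T cell genes, and native T cells had the highest values for each. Of 13 members compared in T cells, 6 were at least 2-fold lower in the allograft (13.2% of 10196 genes) and 1 at least 2-fold higher (10.7%). Over all lymphocytes, 5 of 14 were at least 2-fold lower (12.4% of 10814 genes) and 1, Clec4a1, at least 2-fold higher (10.5%). That Clec4a1 ratio of 2.06 rested on 22 and 7 UMIs, and its interval included 1 (0.889 to 5.97). With cells thinned to 1000 UMIs, where fewer genes could be compared, 0 members passed 2-fold in either direction in T cells or in lymphocytes. Beside this, the myeloid gene Lyz2 was at 165, 905 and 17.3 CPM and the class II chaperone Cd74 at 1288, 7437 and 179.7 CPM in T cells. The macrophage list, with 8 of 8 genes detected, summed to 295, 310.0 and 17.3 CPM in them; the part of such UMIs in the Clec values was not tested.

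Fibroblasts were the main source of the secreted members, and within fibroblasts the trachea libraries were closer than over whole libraries. Clec3b was at 793 CPM in 48 allograft fibroblasts (725 to 865) and 936 CPM in 950 native ones (917 to 955). A UMI of it was found in 22 of 48 and 779 of 950 cells. Clec11a was at 145 CPM (116 to 177) and 178 CPM (170.3 to 187) in the same cells, so the Clec11a intervals overlapped and those of Clec3b did not. Thinned to 1000 UMIs, 46.6% of native fibroblasts (43.4 to 49.9%) and 0.933% of native macrophages had a Clec3b UMI. In the 23 allograft chondrocytes Clec3b was at 0 CPM (limit 7.84 CPM), Clec11a at 157 CPM (119.6 to 202) and Clec3a, known from cartilage, at 28.7 CPM, with 11 of that library's 17 Clec3a UMIs. Over the whole mesenchyme gate Clec3b was 1.89-fold lower in the allograft (1.73 to 2.07), and Clec3a, with 11 UMIs against 0, was at least 36.5-fold higher, a gate of 48 fibroblasts and 23 chondrocytes against 950 and 6. Clec14a was at 235 CPM (142 to 368) in the 18 native endothelial cells, while 79.5% of its native UMIs lay in fibroblasts at 15.0 CPM.

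Myeloid members were also counted in mesenchyme, and more in that of the allograft. Clec4e was at 51.4 CPM in allograft and 2.68 CPM in native mesenchyme (19.0-fold, 11.8 to 31.7). Clec4n was at 20.7 and 1.79 CPM (11.6-fold), and Clec4a2, Clec12a and Clec4a1 were 8.14-fold to 9.38-fold higher. Of 16 members compared, 10 were at least 2-fold higher in the allograft (18% of 12962 genes) and 1, Clec14a, at least 2-fold lower (12.8%). The median log2 ratio of the members was 1.80. These calls depended on the UMI minimum: 6 were higher among members with 30 or more UMIs. With cells thinned to 1000 UMIs, where fewer members could be compared, 0 were higher and the median was -0.061. Clec4e was then found in only 2 of 70 allograft and 4 of 954 native cells. The thinned count therefore cannot decide for members at such levels. With a stricter gate of at least 4 markers and a lead of 2, Clec4b1 and Clec10a were lower in the allograft, at log2 ratios of -1.41 and -0.31. Of the 39 Clec4e UMIs in allograft fibroblasts, found in 9 cells, 1 cell held 61.5%. Other leukocyte genes were higher too: fibroblasts had 621 CPM of Lyz2 in the allograft against 99.95 in native trachea, 3880.5 against 369 CPM of Cd74 and 84.2 against 8.47 CPM of Ptprc. The macrophage list, with 8 of 8 genes detected in both, summed to 747 CPM in allograft and 203 CPM in native fibroblasts, and its part in the Clec values was not tested.

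Of the remaining members, 10 had 10 or more UMIs but stayed below the levels set for full values in every library and every class defined by a single marker list. One of these 10 members, Clec9a, reached 144 CPM in the combined dendritic gate of the spleen and 68.9 CPM in that of the allograft. Clec16a, an intracellular protein of endosome and mitochondrial turnover and no lectin receptor, was nearly level at 9.06, 9.43 and 8.25 CPM in allograft, native trachea and spleen. Clec12b, an inhibitory receptor, had 78, 13 and 0 UMIs, and 68 of the 78 (87.2%) lay in 15 allograft cells gated as mast cells or basophils, at 736 CPM (572 to 933) with 12 of the 15 cells positive, a pattern picked out after its values were seen. Clec2l, Clec4b2, Clec4g and Clec3a had at most 39 UMIs in any library. Clec1b, given in full for its spleen level, is the podoplanin receptor of platelets and was at 1.80, 1.52 and 2.01 CPM over whole libraries and at 61.9 CPM (34.7 to 102) in spleen macrophages, from 15 UMIs in 10 cells. The last 4 members had fewer than 10 UMIs over the 3 libraries: the Kupffer cell receptor Clec4f had 0, and Clec2h, Clec2e and Clec18a had 6, 1 and 1. Over a whole library, 0 UMIs leave a limit of 0.118 CPM in the allograft, 0.0989 in native trachea and 0.108 in the spleen. Clec12b, Clec14a and Clec3a were at 0 UMIs in the spleen. Against that limit their allograft levels were 28.4-fold, 4.37-fold and 6.20-fold higher, with no allowance for the counting error of the allograft levels.

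The signalling genes that act with these receptors were within 2-fold between allograft and native macrophages. Of 15 signalling genes, 0 passed 2-fold in either direction, with a median log2 ratio of 0.39 beside 0.06 for all genes. The kinase Syk was at 277 CPM in the allograft and 222 in native trachea, the adaptor Fcer1g at 2577 and 1960.3 CPM, Tyrobp at 2010.5 and 1540 CPM and Card9 at 7.73 and 6.73 CPM. Among 5 binding partners compared, 4 were at least 2-fold higher (7.06% of all 13761 genes), including Pdpn, the Clec1b ligand, at 74.8 against 16.4 CPM (4.54-fold, 3.91 to 5.32) and Klrb1b, the Clec2d receptor, at 30.1 against 14.6 CPM. The partner list also names the NK cell receptor genes Klrb1a, Klrb1c and Klrb1f, and Klrb1c is a marker of the NK gate. That gate held 166 allograft and 3 native cells, and the part of NK cell UMIs in these macrophage values was not tested. Of 23 C-type lectin genes with other symbols, 13 were at least 2-fold lower (10.8% of all genes) and 1 higher (7.06%), with a median log2 ratio of -1.30. The lower ones included Mgl2, the near copy of Clec10a, at 210 against 770.3 CPM (3.67-fold, 3.53 to 3.82) and Cd209f at 5.25 against 326 CPM, which has near-identical relatives. Cd72, a B cell and macrophage receptor, was the higher one at 329 against 96.9 CPM (3.39-fold, 3.18 to 3.62).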

How the data were processed

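The labels describe 10x Chromium single-cell 3' libraries (chemistry version 3) of 12 mouse samples. The deposited values were raw counts of UMIs per gene and barcode in 3 matrices, made by the authors with Cell Ranger 3.1.0 per the file headers on build mm10 per the submitters' processing notes. The annotation release and the treatment of multimapping reads are not given in the sources used here; positions are those of GENCODE M21.

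Barcodes with at least 500 genes and at most 20% mitochondrial UMIs were kept, 3895, 4156 and 4579 for allograft, native trachea and spleen. Scrublet in scanpy 1.11.5, run on all barcodes, called 31, 43 and 9 doublets (0.672%, 0.930% and 0.185%, where loading predicts 3.69% to 3.88%), so most doublets probably stayed in. A cell entered the class of which it had most of 8 markers, with at least 3 detected and a lead of at least 1 over every other of the 19 lists; 7.71%, 4.98% and 3.06% of cells stayed unassigned. CPM came from UMIs summed over a class. Members with 10 or more UMIs over both libraries were compared in classes of at least 50 cells in each, with 0.5 UMI added for ratios, exact conditional binomial 95% intervals for ratios, Poisson for CPM and Clopper-Pearson for shares; 2-fold was the size used. A limit for 0 UMIs is 3 counts. Shares used cells thinned to 1000 UMIs, which left out 61, 24 and 47 shallower cells. Members at 10 CPM or more in a library or 50 CPM or more in a class of 50 cells, counted by single marker list, got full values. The genes, marker lists and other gene lists, and the macrophage split, were chosen with earlier results of these data known. Summed counts were simulated by Poisson draws, as the intervals assume, for the 16465 genes of the all-cell and the 13761 of the macrophage comparison. With 200 genes changed in each, 96% of intervals held the true ratio. Such draws leave out the clustering of UMIs in single cells, so coverage on the real counts was not checked. Alternatives were another filter, gate, scaling, UMI minimum and depth, and doublets kept. Software was Python 3.11.15, numpy 2.4.6, pandas 2.3.3, scipy 1.17.1 and matplotlib 3.10.9.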

Additional observations from a re-analysis of the deposited data

Results flagged for a closer look

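Some members stood higher in the allograft than in native trachea in one gate and lower in another, with both ratios beyond 2-fold. In each case the difference between gates was not tested, since each source is 1 library. Clec4b1 was 4.83-fold higher in allograft mesenchyme, while its allograft to native ratio was 0.323 in dendritic cells and 0.133 in lymphocytes. With the stricter gate of 4 markers and a lead of 2, the mesenchyme value of Clec4b1 was lower in the allograft (log2 -1.41), so its opposite direction rests on the gate. Clec4a2 had ratios of 9.38 in mesenchyme and 0.309 in lymphocytes. Clec4e had ratios of 19.0 in mesenchyme and 0.236 in lymphocytes. Clec12a had ratios of 8.87 and 0.387 in the same gates. Clec10a had ratios of 3.43 in monocytes and 0.402 in lymphocytes. The mesenchyme and lymphocyte ratios rest on small numbers, from 8 to 88 UMIs a library for these 5 genes in those gates apart from Clec10a in monocytes, and stand beside the macrophage marker sums given with them.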

How the results depend on the processing

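The counts of members at least 2-fold higher or lower in the allograft than in native trachea changed most with thinning and with the UMI minimum. With cells thinned to 1000 UMIs, which leaves fewer genes to compare, the members higher numbered 6 in place of 10 over all cells, 0 in place of 3 in monocytes, 2 in place of 5 in dendritic cells, 0 in place of 1 in lymphocytes and in T cells, and 0 in place of 10 in mesenchyme. The members lower numbered 1 in place of 2 in macrophages and in dendritic cells, and 0 in neutrophils (1), lymphocytes (5), mesenchyme (1) and T cells (6); the median log2 ratio in mesenchyme was then -0.061 in place of 1.80. At 30 or more UMIs, 1 member was lower in macrophages and in dendritic cells and 0 in neutrophils, and 6 were higher in mesenchyme and 0 in lymphocytes and T cells. The mean of per-cell CPM gave 6 higher over all cells and 0 in lymphocytes and T cells. A gate of 4 markers with a lead of 2 gave 0 higher in lymphocytes and T cells and 3 lower in mesenchyme, where Clec4b1 (-1.41) and Clec10a (-0.31) changed sign on the log2 scale, and the cause was not tested. Scaling by the median of ratios gave 2 lower in neutrophils and 2 in mesenchyme, a filter of 1000 genes and 10% mitochondrial UMIs gave 2 higher in lymphocytes, and keeping doublets gave 1 lower in monocytes. Of 746 single-gene values under an alternative, 302 were beyond 2-fold as reported; 24 no longer were, 10 became so, 2 changed sign and 44 moved by over 1.5 times. Clec4n in macrophages kept a log2 ratio between 2.46 and 2.73. The stricter gate in dendritic cells and the stricter filter in neutrophils were not run, since under 50 cells remained in the allograft. No paired analysis was possible because each source is 1 pooled matrix. Depth limits the members under 10 UMIs and all mesenchyme, monocyte and dendritic cell values of the allograft, which rest on 71, 179 and 80 cells.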
